A study of Homo sapiens with 6 samples.

Results

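The 9 genes described here encode the MHC class I antigen presentation machinery: the heavy chains HLA-B, HLA-C, HLA-E and HLA-F, their light chain B2M, the peptide transporter subunits TAP1 and TAP2, the loading factor TAPBP and the peptide-trimming enzyme ERAP1. They were taken by name from a table of 38170 annotated features, and all 9 had enough counts to be among the 19620 features tested. The RNA came from A549, a human lung carcinoma cell line, in 2 groups of 3 libraries. One group carried an empty vector (called vector) and the other overexpressed LOC401312, a long non-coding RNA, from a piggyBac construct, piggyBac being a transposon that inserts DNA into the genome. The growth conditions given are the same for both groups, in DMEM with serum, and the labels give no treatment with interferon or radiation and do not say whether a line was 1 clone or a pool. Groups follow the sample titles, because LOC401312 replicates 2 and 3 carry the genotype labels LOC401313 and LOC401314. Separate cultures are not mentioned for the libraries of a group, so p-values reflect the variation among these libraries alone, and that variation may be technical.

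MHC class I molecules display short peptides from a cell's own proteins at its surface, where cytotoxic T cells and natural killer cells inspect them. Proteasomes cut proteins into peptides, TAP1 and TAP2 together pump the peptides into the endoplasmic reticulum, ERAP1 trims them, and TAPBP (tapasin) holds an empty heavy chain and B2M beside the transporter until a peptide is bound. Epithelial cells make this machinery at a basal level. Interferons raise it through IRF1 and the transactivator NLRC5, and NF-kB adds to it.

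The promoters of the class I heavy chains and of B2M are known to share short regulatory elements, so the upstream stretches of the genes with the highest and one of the lowest levels per length (B2M and HLA-B) and of HLA-C, the close relative of HLA-B, are shown. Windows of 250 bases before the start site came from RefSeq (GRCh38.p14), in which 8 of the 9 genes had an entry and HLA-E had none. The motifs searched, on both strands, were AANNGAAA (the core of interferon response elements), GGGNNTTNC (a kappaB-like form), TGACG (the core of the X2 element) and CCAAT (the Y box). Capitals mark a match to any of them, and each line runs 5′ to 3′ and is a stretch within the 250 bases, trimmed to its matches.

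B2M, chr15:44711367-44711480, plus strand: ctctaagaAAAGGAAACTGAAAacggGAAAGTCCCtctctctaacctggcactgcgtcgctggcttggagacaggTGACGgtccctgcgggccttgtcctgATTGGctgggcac
HLA-B, chr6:31357223-31357364, minus strand: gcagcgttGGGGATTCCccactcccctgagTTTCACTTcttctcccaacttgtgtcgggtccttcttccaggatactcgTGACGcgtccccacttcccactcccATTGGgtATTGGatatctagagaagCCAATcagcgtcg
HLA-C, chr6:31272136-31272292, minus strand: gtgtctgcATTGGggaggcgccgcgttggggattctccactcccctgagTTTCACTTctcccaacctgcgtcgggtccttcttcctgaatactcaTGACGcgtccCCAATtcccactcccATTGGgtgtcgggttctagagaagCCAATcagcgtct

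All 3 stretches held the interferon core, TGACG and CCAAT, and B2M and HLA-B, but not HLA-C, also held the kappaB-like form. In B2M a pair of interferon core matches overlap each other. Over the 250-base windows of HLA-B and HLA-C, 89.0% of aligned positions were identical, against 80.4% for HLA-B and HLA-F. Among the 8 genes, 7 (all but ERAP1) held the interferon core, 5 the kappaB-like form, 4 TGACG and 6 CCAAT. These forms are common: of 35116 RefSeq windows of the same length, 20.3% held the interferon core, 14.2% the kappaB-like form, 21.2% TGACG and 32.0% CCAAT. A match describes these letters only and shows no bound factor.

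The libraries held 60971105 to 73994619 counts. The introduced transcript has no entry of its own name; the STEAP1B entry that overlaps its locus held 9 to 23 counts in vector and 90297 to 94628 in LOC401312. Of 6 epithelial markers all had counts in every library, and the keratins KRT7, KRT8 and KRT18 made up most of their sum, while EPCAM was low, at 1.69 to 2.85 CPM (summed level 9422 to 10327 CPM in vector and 10005 to 10534 CPM in LOC401312, CPM being counts scaled to a common library total, with KRT8 the highest). Some libraries stood apart in markers of other cell types. Of 10 haematopoietic markers, 7 were highest in vector replicate 1, where the leukocyte gene PTPRC had 256 counts and the T cell gene CD3E 55, against at most 8 and 0 counts in the other libraries. The list's summed level was 29.9 CPM there, 17.2 to 18.1 CPM in the other vector libraries and 18.4 to 21.7 CPM in LOC401312, with CD14 the highest gene. Trophoblast markers (9 of 9 with counts, CGA the highest) summed to 1.02 to 1.87 CPM in vector, 1.72 CPM in LOC401312 replicate 1, and 98.0 and 94.3 CPM in LOC401312 replicates 2 and 3. Fibroblast markers (6 of 6 with counts, COL1A1 the highest) summed to 39.4 to 69.1 CPM in vector, highest in replicate 1, and 23.1 to 26.2 CPM in LOC401312. COL1A1 and COL1A2 were lower in every LOC401312 library, while COL3A1, LUM and DCN overlapped between the groups. COL3A1 held 20.9 CPM in vector replicate 1 and 3.23 and 7.82 CPM in the other vector libraries. LUM held 4.67, 0.418 and 0.797 CPM in vector and 1.60 to 2.52 CPM in LOC401312. DCN held 2.76, 0.519 and 0.959 CPM in vector and 1.06 to 1.73 CPM in LOC401312. LUM and DCN thus overlapped through vector replicate 1 alone. PDGFRB went the other way, at 0.217 to 0.458 CPM in vector and 0.610 to 0.824 CPM in LOC401312. Urothelial markers (8 of 8 with counts) summed to 12.8 to 13.3 CPM in vector and 6.70 to 7.97 CPM in LOC401312. Their most abundant gene over all libraries, GATA3, did not share that difference (3.02 to 3.71 against 4.22 to 4.72 CPM), while KRT13 held 4.23 to 4.65 CPM in vector and 5, 0 and 0 counts in LOC401312. Endothelial markers (5 of 5 with counts, CDH5 the highest) summed to 1.74 to 1.98 CPM in vector and 1.46 to 2.74 CPM in LOC401312. No marker of these lists was at 0 in every library.

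Levels between genes were compared in the deposited FPKM, which are counts per length and library total. B2M was the highest of the 9, with 40.0 to 48.7 FPKM over the 6 libraries. HLA-E (19.6 to 23.7 FPKM), TAPBP (18.3 to 22.9 FPKM) and HLA-C (15.9 to 19.96 FPKM) followed, B2M having a mean 2.05 times that of HLA-E. The ranges of HLA-E and TAPBP, and of TAPBP and HLA-C, overlapped between libraries. Within each library HLA-E was above TAPBP, while HLA-C was above TAPBP in vector replicate 1 alone. TAP1 (6.86 to 9.77 FPKM) and TAP2 (5.41 to 7.25 FPKM) came next and also overlapped between libraries, but TAP1 was the higher within each library. ERAP1 lay at 3.32 to 4.56 FPKM, below every TAP2 value, and overlapped HLA-B, which lay at 1.72 to 3.70 FPKM. Within each library ERAP1 was above HLA-B. HLA-F was lowest, at 0.35 to 0.56 FPKM, a mean 5.45 times below that of HLA-B.

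**Figure D1:**
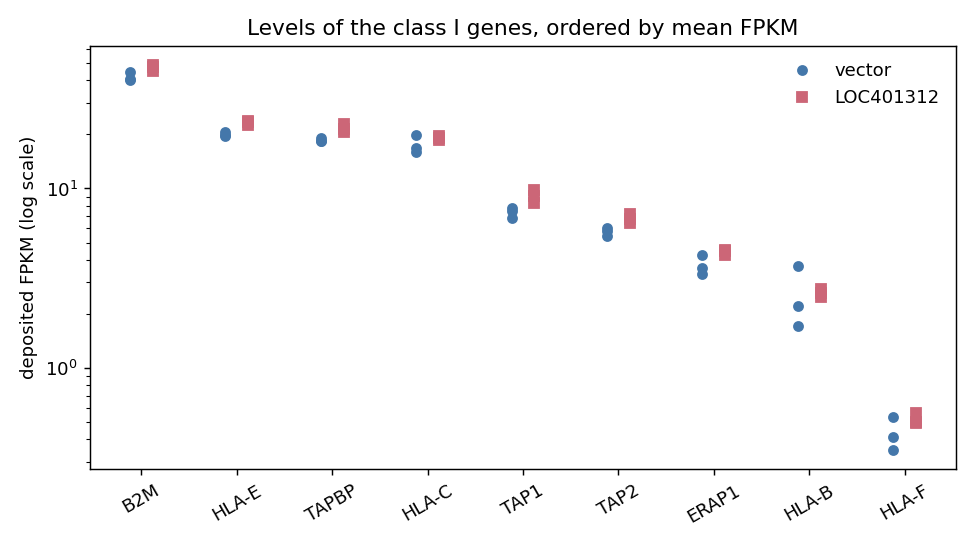
Deposited FPKM (log axis) of each class I gene in the 3 vector libraries (circles) and the 3 LOC401312 libraries (squares), 1 point per library, ordered by mean. B2M sits at 40.0 to 48.7 FPKM and HLA-F at 0.35 to 0.56 FPKM, and the LOC401312 libraries of B2M, HLA-E, TAPBP, TAP1 and TAP2 all lie above the vector libraries on this scale. The share of all features that do so in FPKM was not counted, and the FPKM of abundant features are shifted upward as a whole in LOC401312. In CPM only HLA-E and TAP2 are without overlap.

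None of the 9 genes passed the test between LOC401312 and vector (edgeR quasi-likelihood, adjusted p of 0.141 or more), where 8.72% of all tested features passed, 811 higher and 899 lower. DESeq2 also called 0 of the 9. At an unadjusted p under 0.05 edgeR and DESeq2 each had 1 of the 9, TAP1, against 22.6% of all features by edgeR. Log2 changes are LOC401312 over vector with their standard error (SE). They were positive for 7 genes and negative for HLA-B and HLA-C, and their median was 0.09, against -0.00066 over all tested features. The sizes were at most 0.17, a 1.12-fold level.

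**Figure D2:**
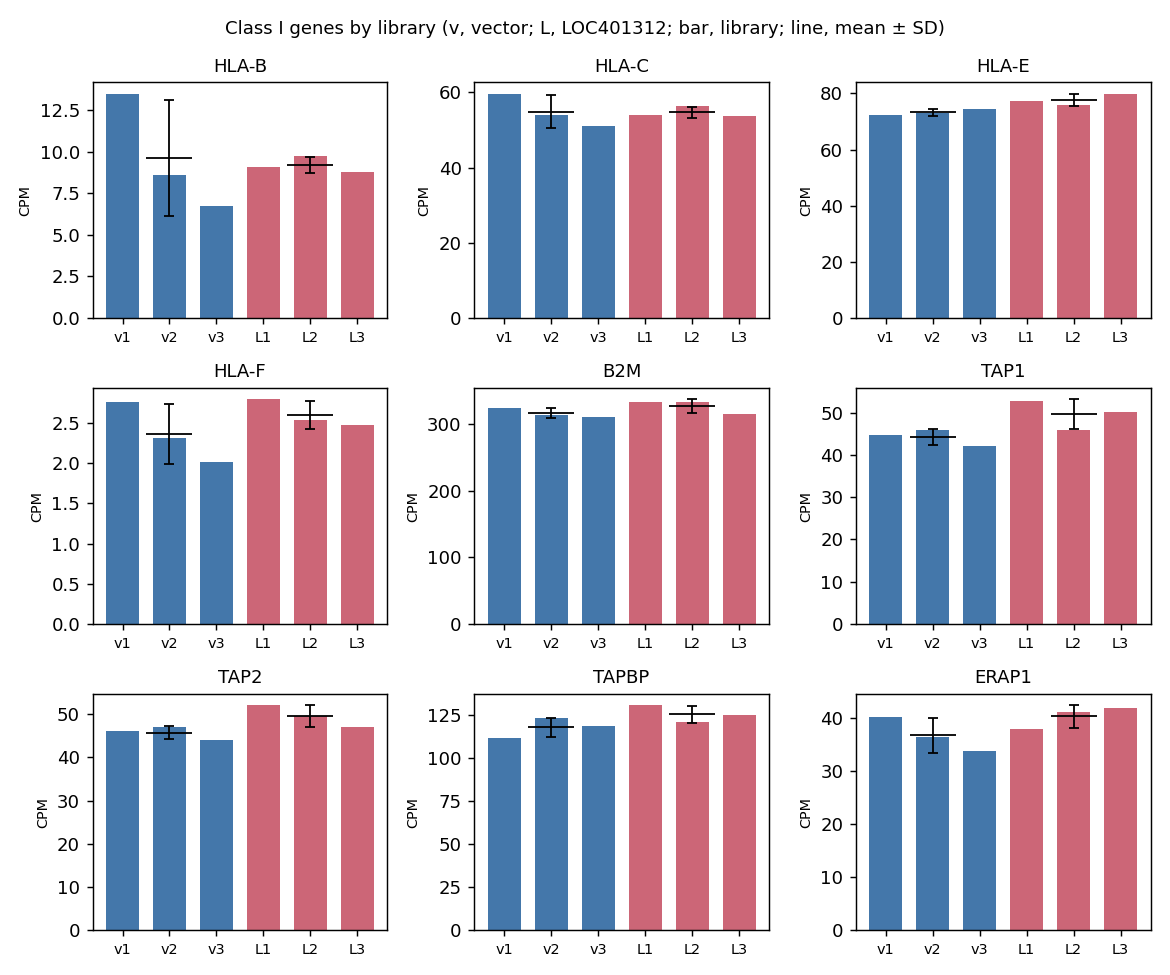
CPM of each class I gene by library, with bars for the 3 vector (v) and 3 LOC401312 (L) libraries from 0 and a black line and whiskers for the group mean ± SD (n = 3). HLA-B spans 6.75 to 13.5 CPM within vector, and HLA-E and TAP2 are the genes whose groups do not overlap.

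Among the heavy chains, HLA-B, a classical molecule that presents peptides to cytotoxic T cells, varied most. It held 13.5, 8.60 and 6.75 CPM in vector and 9.09, 9.73 and 8.79 CPM in LOC401312. Vector replicate 1 was the highest of all 6 libraries and vector replicate 3 the lowest, so the LOC401312 libraries lay inside the range of vector. The coefficient of variation was 36.3% in vector and 5.21% in LOC401312. HLA-B had a log2 change of -0.07 (SE 0.21, edgeR adjusted p = 0.903), with a 95% interval of -0.53 to 0.40, so a range of 0.692 to 1.32 times the vector level. Counting error was smaller than this spread: 1003 counts in vector replicate 1 have an exact 95% Poisson interval up to 1067, and 415 counts in vector replicate 3 one up to 457, which covers counting only.

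The direction of HLA-B rested on vector replicate 1. Without that library its log2 change was 0.26 (SE 0.13, edgeR adjusted p = 0.271), and without vector replicate 3 it was -0.27 (adjusted p = 0.505). Vector replicate 1 held 1.76 times the mean HLA-B level of the other vector libraries, 1.28 times for HLA-F, 1.15 times for ERAP1 and 1.14 times for HLA-C, but 1.04 times for B2M, 1.02 for TAP1, 1.01 for TAP2, 0.980 for HLA-E and 0.925 for TAPBP. HLA-B and HLA-C were the genes of the 9 that were highest in that library. The same library was the one with the leukocyte transcripts given above, and it was also highest in the fibroblast markers COL3A1, LUM and DCN. CD74, the class II invariant chain made by antigen-presenting cells, held 6.40 CPM there and 0.803 to 1.67 CPM in the other 5. The 9 genes of class II presentation, a pathway for peptides from outside the cell, summed to 15.1 CPM in vector replicate 1. Their sum was 5.29 and 7.07 CPM in the other vector libraries and 5.66 to 7.78 CPM in LOC401312. Of these 9, 5 were highest in vector replicate 1, HLA-DMA, HLA-DMB and HLA-DQA1 were not, and HLA-DQB1 was at 0 in all libraries. The part of these transcripts in the HLA-B value was not tested, and in bulk RNA fewer cells of a type cannot be told from less RNA per cell.

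**Figure D3:**
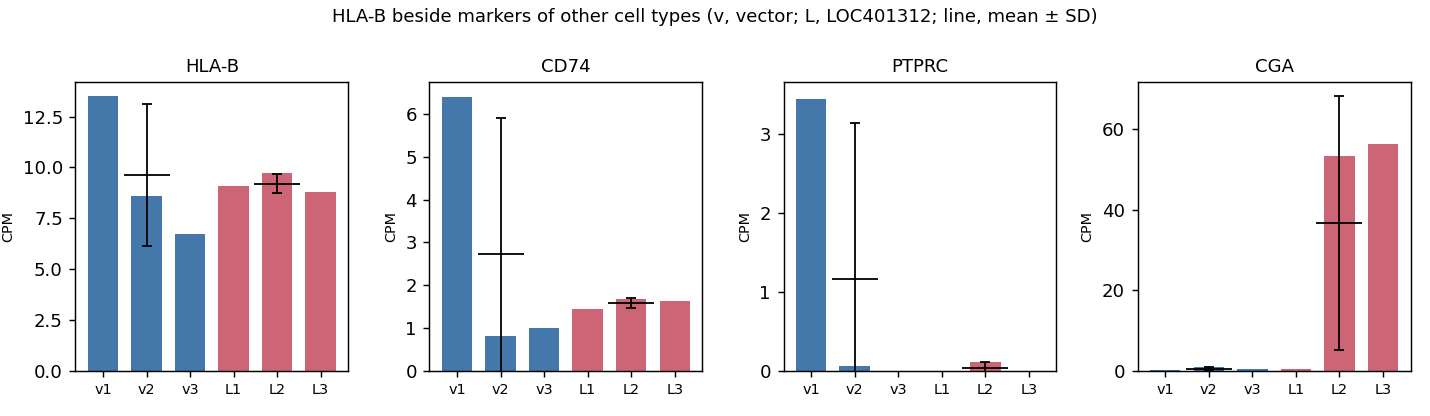
CPM by library for HLA-B, the class II invariant chain CD74, the leukocyte gene PTPRC and the placental hormone gene CGA, with bars from 0 for vector (v) and LOC401312 (L) and a line with whiskers for mean ± SD (n = 3; whiskers end at 0 where mean - SD is lower). HLA-B, CD74 and PTPRC are highest in vector replicate 1, and CGA is high in LOC401312 replicates 2 and 3 alone.

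HLA-C, a classical heavy chain that is also a major ligand of inhibitory receptors on natural killer cells, was close to level. It held 59.7, 53.9 and 51.0 CPM in vector and 54.0, 56.3 and 53.7 CPM in LOC401312, with all LOC401312 libraries inside the vector range. The log2 change was -0.01 (SE 0.06, edgeR adjusted p = 0.975; 95% interval -0.14 to 0.13), and its sign changed with the scaling or the library left out. The FPKM of HLA-B was 0.185, 0.131 and 0.108 of that of HLA-C in vector and 0.137, 0.141 and 0.134 in LOC401312. That ratio, too, was spread widely in vector and tightly in LOC401312.

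These entries can exchange reads. The HLA-B entry (chromosome 6, 31269491 to 31357179, minus strand) runs over 2615 of the 3357 bases of the HLA-C entry (31268749 to 31272105, minus strand). Class I heavy chains are also near-identical over much of their length and highly polymorphic. The sources used here do not give how shared reads were assigned, and the separate levels of HLA-B, HLA-C, HLA-E and HLA-F are uncertain.

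HLA-E, which presents leader peptides of other class I chains to the NKG2 receptors of natural killer cells, was a little higher in every LOC401312 library. It held 72.2, 73.0 and 74.4 CPM in vector and 77.1, 75.7 and 79.9 CPM in LOC401312, without overlap. The log2 change of 0.08 (SE 0.04; 95% interval -0.01 to 0.18) did not pass (edgeR adjusted p = 0.289). HLA-F, a non-classical chain, held 2.76, 2.31 and 2.02 CPM in vector and 2.79, 2.54 and 2.47 CPM in LOC401312. The ranges overlapped, and the log2 change was 0.14 (SE 0.20, adjusted p = 0.757). With 124 to 205 counts a library this gene had the fewest counts of the 9, and its 95% interval of -0.30 to 0.57 was the widest after that of HLA-B. HLA-F also overlaps the antisense entry HLA-F-AS1 (0.471 to 1.59 CPM), whose reads could not be told apart without a stated strand setting.

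HLA-G, a class I molecule of the trophoblast that is not among the 9 and did not pass the filter on low counts, had 29 and 13 counts in LOC401312 replicates 2 and 3 and 0 in the other 4 libraries. Those are the libraries with the trophoblast transcripts given above. With both left out, and the 1 remaining LOC401312 library assumed to vary like the vector libraries, the 9 genes kept the signs of their log2 changes, at -0.08 for HLA-B, -0.02 for HLA-C and 0.05 to 0.26 for the others, with edgeR adjusted p of 0.277 or more.

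B2M, the light chain that class I heavy chains generally need to fold and reach the surface (chromosome 15, 44711487 to 44718877, plus strand), had the smallest standard error of the 9. It held 325, 314 and 311 CPM in vector and 333, 334 and 316 CPM in LOC401312. The groups overlapped, since LOC401312 replicate 3 lay below vector replicate 1. The log2 change was 0.05 (SE 0.04, edgeR adjusted p = 0.536), and its 95% interval of -0.04 to 0.13 spans 0.974 to 1.10 times the vector level. No other entry overlaps B2M in the table.

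TAP1, a transporter subunit, had the largest estimate of the 9. TAP1 (chromosome 6, 32845209 to 32853978, minus strand) held 44.7, 45.9 and 42.1 CPM in vector and 52.8, 45.8 and 50.2 CPM in LOC401312. LOC401312 replicate 2 lay within the vector range, and the other LOC401312 libraries above it. The log2 change was 0.17 (SE 0.06, edgeR adjusted p = 0.141; 95% interval before adjustment 0.03 to 0.30). TAP2 (32821833 to 32838770, minus strand) held 46.0, 47.0 and 44.1 CPM in vector and 52.1, 49.6 and 47.2 CPM in LOC401312. Its groups did not overlap, by a margin of less than 1 CPM. The TAP2 entry lies wholly within the AL669918 entry on the same strand (0.309 to 0.865 CPM). How reads shared by that pair were assigned is not given, so the narrow margin is uncertain. The log2 change was 0.12 (SE 0.05, adjusted p = 0.227; 95% interval -0.0012 to 0.24). The transporter is built from 1 subunit of each kind, and the FPKM of TAP1 was 1.29, 1.30 and 1.27 times that of TAP2 in vector and 1.35, 1.23 and 1.41 times in LOC401312, overlapping ranges.

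HLA-E and TAP2 were thus 2 of 9 genes with every LOC401312 library above every vector library, where 14.0% of all tested features showed the same. An exact permutation test (two-sided) returned p = 0.1 for each, the smallest that 20 arrangements of 3 against 3 allow. No member had every LOC401312 library below every vector library, but the share of all features that did is not given here, so this is not read as a result.

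TAPBP, which bridges TAP and the empty heavy chain (chromosome 6, 33299694 to 33314251, minus strand), held 112, 123 and 118 CPM in vector and 130, 120 and 125 CPM in LOC401312. The groups overlapped, and the log2 change was 0.09 (SE 0.05, edgeR adjusted p = 0.327; 95% interval -0.02 to 0.20). ERAP1, the aminopeptidase that trims peptides in the endoplasmic reticulum (chromosome 5, 96760810 to 96808100, minus strand), held 40.2, 36.4 and 33.7 CPM in vector and 37.9, 41.1 and 41.8 CPM in LOC401312. Its groups overlapped through vector replicate 1, and the log2 change was 0.13 (SE 0.07, adjusted p = 0.329; 95% interval -0.03 to 0.29). ERAP1 shares 18786 bases with CAST on the other strand, an entry of 343 to 383 CPM, and TAP1 lies wholly within the PSMB9 entry on the other strand (9.92 to 13.4 CPM). Reads of these pairs could not be told apart if strand was not used in counting.

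The scale of the deposited FPKM bore on these values. Tested with limma on log2(FPKM + 0.1), all 9 genes had a positive change, and HLA-E (0.21, limma adjusted p = 0.0267) and TAPBP (0.21, adjusted p = 0.0360) passed, 2 of 9 where 8.36% of all features were called higher on that scale. The FPKM of abundant features were shifted as a whole, by a median of 0.11 over the 6137 features whose mean reached 5 FPKM, against -0.02 for the same features in the counts. All 9 genes lay above that shift, with a median of 0.21, but HLA-B did so narrowly (0.114 against 0.109). The shift is a median, so many other features lay above it too, and their share was not counted. ERAP1, HLA-B and HLA-F averaged 4.08, 2.58 and 0.473 FPKM and so were not among the features that set it. Once each library was rescaled to one FPKM sum, HLA-E stood at 0.15 (limma adjusted p = 0.0567) and TAPBP at 0.16 (adjusted p = 0.0863), and none of the 9 passed.

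**Figure D4:**
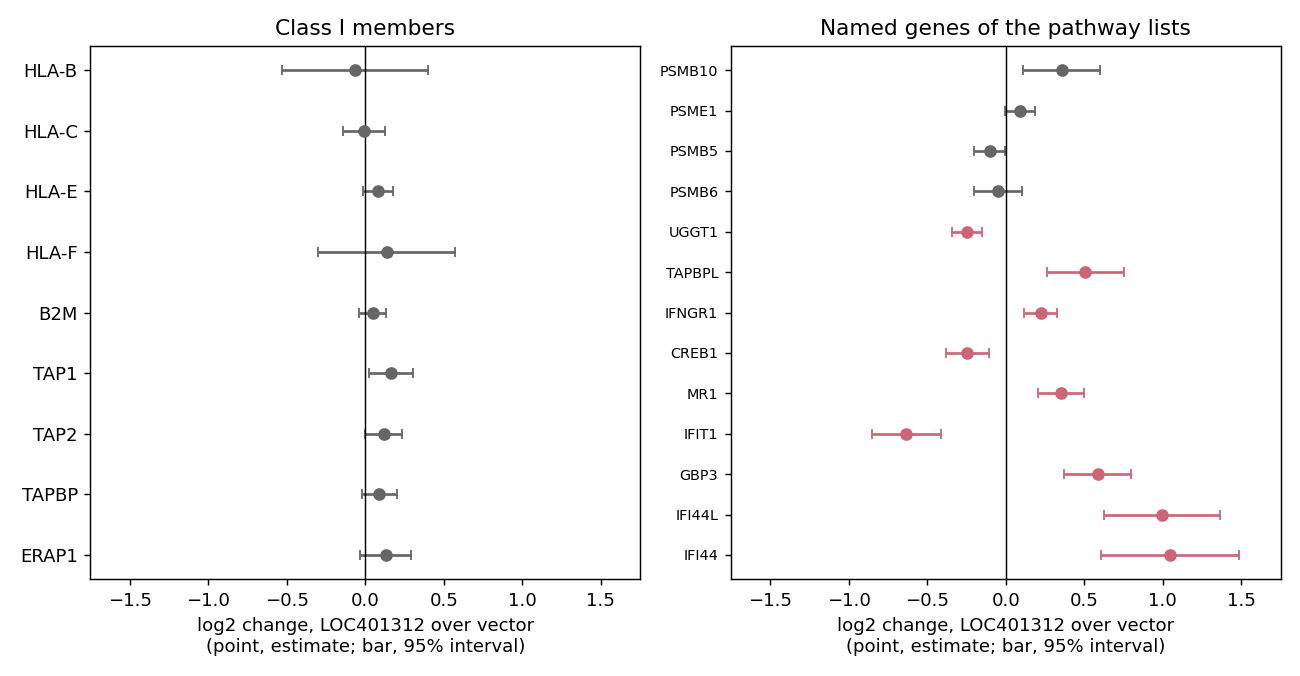
Log2 change, LOC401312 over vector, with its 95% interval from edgeR for the 9 class I genes (left) and for genes described from the pathway lists (right), where red marks an adjusted p under 0.05. Every member interval on the left but that of TAP1 includes 0, and IFI44 and IFI44L lie farthest to the right.

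Around these genes in the pathway, 81 tested genes of 7 lists held 9 that rose and 4 that fell, 16.0% of the genes against the 8.72% of all features. The immunoproteasome, whose subunits PSMB8, PSMB9 and PSMB10 replace the standard ones under interferon and favour class I peptides, showed 0 of 5 passing with its activator genes (median log2 change 0.09; edgeR, smallest adjusted p 0.0780). PSMB10 held 9.29, 8.56 and 10.2 CPM in vector and 12.8, 12.5 and 10.6 CPM in LOC401312. Its log2 change was 0.36 (SE 0.11, edgeR adjusted p = 0.0780), and PSME1 was at 0.09 (adjusted p = 0.243). PSMB8, which lies between TAP2 and TAP1, and PSMB9, whose entry spans TAP1, are given for their position and were at 0.05 and 0.13 (adjusted p = 0.774 and 0.561). Of 4 other proteasome genes, the constitutive catalytic subunits PSMB5, PSMB6 and PSMB7 and the activator subunit PSME3, none passed either (edgeR), with PSMB5 at -0.10 (adjusted p = 0.211) and PSMB6 at -0.05 (adjusted p = 0.764), and the median was -0.04.

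Of 9 genes for peptide loading chaperones and trimming, TAPBPL rose and UGGT1 fell. TAPBPL (TAPBPR), a relative of tapasin that edits the peptides of class I molecules, held 6.48, 5.97 and 7.04 CPM in vector and 9.53, 8.76 and 9.41 CPM in LOC401312. Its groups did not overlap, and it rose by 0.51 (SE 0.11, edgeR adjusted p = 0.0180). The call ended without vector replicate 2 or any LOC401312 library (adjusted p up to 0.0748), and TAPBPL lies on chromosome 12, whose 642 features averaging 4 CPM or more had a median of 0.12. UGGT1, the folding sensor of the endoplasmic reticulum that works with TAPBPL on class I molecules, averaged 192 ± 6.67 CPM in vector and 161 ± 5.13 CPM in LOC401312 (SD, n = 3). It fell by 0.25 (SE 0.04, edgeR adjusted p = 0.00645). In the deposited FPKM it was at -0.12 (limma adjusted p = 0.207). The other 7, among them CALR, CANX and PDIA3 of the peptide loading complex, had log2 changes between -0.07 and 0.21, and the median of the list was 0.07.

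In the list of class I transcription and signalling, 1 of 22 genes rose, 2 fell and 19 did not pass, with a median of 0.0055. CREB1, a factor known to bind the X2 element, fell by 0.25 (SE 0.06, edgeR adjusted p = 0.0336), a call that ended on leaving out any 1 library (adjusted p up to 0.124). CREB1 and UGGT1 both lie on chromosome 2, whose 780 features averaging 4 CPM or more had a median log2 change of -0.23, with 342 called lower and 13 higher. On chromosome 6 the median of 568 such genes was -0.0069.

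IFNGR1, a chain of the interferon gamma receptor, averaged 141 ± 2.49 CPM in vector and 165 ± 9.13 CPM in LOC401312 (SD, n = 3). It rose by 0.22 (SE 0.05, edgeR adjusted p = 0.0172). That call ended without vector replicate 2 or 3 or LOC401312 replicate 2 or 3 (adjusted p up to 0.0925). NLRC5, the class I transactivator, was at 0.22 (adjusted p = 0.193) and IRF1 at 0.07 (adjusted p = 0.593), both named with their values known. Neither gene passed. The estimate of NLRC5 was close to that of IFNGR1 with a larger standard error (0.09 against 0.05), so the calls do not set these 2 genes apart.

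Genes induced by interferon moved in both directions. Of 24 tested, 6 rose, 1 fell and 17 did not pass, with a median of 0.07. Without vector replicate 1, 5 rose and 1 fell. Of the genes that rose, IFI44, IFI44L, GBP1, GBP2 and GBP3 all lie on chromosome 1, and PARP9 lies on chromosome 3. GBP1, GBP2 and PARP9 are named for their position only. The 1158 features of chromosome 1 averaging 4 CPM or more had a median of -0.0074, with 61 called higher and 58 lower. IFI44 held 1.93, 2.69 and 1.74 CPM in vector and 4.18, 4.51 and 4.45 CPM in LOC401312, and rose by 1.05 (SE 0.20, edgeR adjusted p = 0.00931). Its neighbour IFI44L rose by 0.995 (SE 0.17, adjusted p = 0.00493) and the guanylate-binding protein gene GBP3 by 0.59 (SE 0.10, adjusted p = 0.00461). IFIT1, which binds foreign RNA, averaged 13.2 ± 0.992 CPM in vector and 8.52 ± 0.591 CPM in LOC401312 (SD, n = 3), and fell by 0.63 (SE 0.10, edgeR adjusted p = 0.00377).

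Of 12 tested class I-like molecules and ligands of the receptor NKG2D, MR1 rose and 11 did not pass, with a median of 0.09. MR1 presents small vitamin B metabolites to MAIT cells on a class I fold with B2M. It held 24.97, 25.7 and 27.0 CPM in vector and 33.5, 31.0 and 34.6 CPM in LOC401312, and rose by 0.35 (SE 0.07, edgeR adjusted p = 0.00969). The call ended without LOC401312 replicate 3 (adjusted p = 0.0505). Of 5 tested class II genes none passed, with HLA-DMB at -1.11 (adjusted p = 0.184) and HLA-DRA at -1.09 (adjusted p = 0.327), and the median was -0.80. The leukocyte transcripts of vector replicate 1 stand beside that value, and their part in it was not tested.

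On chromosome 6, 7 of the 9 genes lie between HLA-F and TAPBP (29722775 to 33314251, the span of the MHC). Among 130 other tested features in that span, 2 rose and 7 fell, and their median was -0.03. The heat shock genes HSPA1B and HSPA1A had the smallest p of these, falling by 0.56 (SE 0.06, edgeR adjusted p = 0.000302) and by 0.49 (SE 0.06, adjusted p = 0.000754). They are near-identical copies, so their separate counts are uncertain, and both are named with their values known. The complement gene CFB, also in the span and also named after its values were seen, rose by 0.31 (SE 0.08, adjusted p = 0.0300).

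The mean pattern of the 9 genes over the 6 libraries, on centred log2 CPM, was 0.07, -0.04 and -0.15 in vector and 0.07, 0.04 and 0.02 in LOC401312. It was highest in vector replicate 1 and LOC401312 replicate 1 and lowest in vector replicate 3. In vector replicate 1 the genes did not share a direction, and HLA-B stood far above the rest at 0.55. HLA-F was at 0.16, HLA-C at 0.13, ERAP1 at 0.07 and B2M at 0.01 there. TAP2 was at -0.05, HLA-E at -0.06, TAP1 at -0.07 and TAPBP at -0.12. Of 9872 other features averaging 10 CPM or more, TRAPPC10, MKI67 and ZRANB1 came nearest to the mean pattern, with root mean square differences of 0.0172, 0.0234 and 0.0237 over 6 libraries.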

How the data were processed

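The authors deposited 1 table with raw counts (whole numbers, 1 column per library, not pooled or normalized) and FPKM for 38170 features, per the file headers. The sources used here do not say how the authors set length and total for the deposited FPKM. Reads were handled with cutadapt 1.9 and FastQC and GRCh38 (hg38) was used, per the submitters' processing notes. The aligner, counter, annotation release and strand setting: not given in the sources used here.

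Counts were tested with edgeR 4.0.16 (R 4.3.3; quasi-likelihood, TMM, filterByExpr, group as the only term) over all 19620 features, with Benjamini-Hochberg adjustment and a threshold of 0.05. CPM use TMM-scaled totals. Standard errors are the log2 change over the square root of F, and 95% intervals use the t quantile of the fit. The biological coefficient of variation was 17%. Within groups, the counts of any 2 libraries differed beyond sampling noise (chi-square over its degrees of freedom 13.7 to 22.9). Each library was counted as 1 replicate, but this spread does not show that the libraries came from separate cultures. Alternatives used DESeq2 1.42.0 and limma 3.58.1 on log2(FPKM + 0.1) and with pseudocounts of 1 and 0.01, for features with a mean of at least 0.1 FPKM. Scaling, filter, block and left-out libraries were also varied.

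The members and lists were chosen with earlier results of these data known, and no set test was run. Named from each list were up to 4 genes past the threshold, by p, and the first 2 where no gene passed. Genes named outside this rule are marked as such. 1 gene that the rule would name is not reported here.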

Additional observations from a re-analysis of the deposited data

How the results depend on the processing

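No member was called in the alternatives that used counts. In limma on log2(FPKM + 0.1), on log2(FPKM + 1) and on log2(FPKM + 0.01), 2 members were called higher, and 1 with no filter. Of 171 member values under 19 settings, 147 kept direction and side of the threshold, 7 passed it (HLA-E and TAPBP) and 17 turned sign (HLA-B and HLA-C). HLA-B was at 0.114, 0.0719, 0.12, 0.114 and 0.0577 in limma with pseudocounts of 0.1, 1 and 0.01, without a filter and after rescaling, and at -0.27 to 0.26 on leaving out 1 library. HLA-C was at 0.12, 0.12, 0.12, 0.12 and 0.0654 in the same limma settings, 9.8e-05 with DESeq2, 0.0036 without a filter on counts, 0.0184 with total-count scaling and -0.0545 to 0.0599 on leaving out 1 library. The members' median stayed positive, at 0.07 to 0.22.

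All features called higher and lower numbered 1599 and 308, 1584 and 303, and 1573 and 297 in those 3 limma settings. The lower count was 180 without a filter on FPKM, 453 after rescaling and 577 without a filter on counts. With LOC401312 replicates 2 and 3 both left out they were 84 and 91, and on leaving out 1 library 393 to 963 and 439 to 1042. List genes called higher were 17, 17 and 16 and lower 2, 2 and 2 in the limma settings, lower 0 without a filter on FPKM and 2 after rescaling, 0 and 0 without LOC401312 replicates 2 and 3, and 4 to 8 higher on leaving out 1 library.

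Replicate numbers of the titles did not pair the libraries: deviations of same-numbered libraries correlated at -0.114, -0.029 and -0.056 over 9884 features. With the replicate block, 509 features were higher and 579 lower, and no member was called. Depth limits HLA-F most, with 124 to 205 counts a library.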
